A study of Macaca mulatta with 26 samples.

Results

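Two-exon circRNAs are circular RNAs whose spliced circle consists of exactly 2 exons and encloses 1 intron on the genome. They were taken as the exonic circRNAs with an exon count of 2 that had at least 2 back-splice junction reads summed over 24 libraries of rhesus monkey vastus lateralis, part of the quadriceps. The rule gave 2378 two-exon circRNAs of 8140 circRNAs (29.21%) and of 7771 exonic circRNAs (30.6%). A circRNA was counted as 1 combination of chromosome, start, end, strand and exon structure.

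Each library came from 1 monkey and was sequenced after digestion of total RNA with RNase R, an exonuclease that degrades linear RNA and largely spares circles. The young group held 6 monkeys aged 0.003 to 6 years, the middle-aged group 11 monkeys aged 11.3 to 16.93 years, and the old group 7 monkeys aged 25.7 to 40.9 years. The labels separate the groups by age, and 4 of the middle-aged libraries carry a mark F of unknown meaning. The young group spanned newborns to adults, so that early growth and age within it cannot be told apart. In addition, 2 libraries were sequenced in depth, 1 of a newborn (0.005 years) and 1 of an animal of 40.1 years, and these served only to look for the circRNAs again.

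In back-splicing, the spliceosome joins the donor site of a downstream exon to the acceptor site of an upstream exon, and the exons between both sites are closed into a ring that lacks free ends. Exons of protein-coding genes supply most circles, the flanking introns are known to influence whether a circle forms, and circRNAs are generally expressed at low levels and in a tissue-specific manner. A read that spans the back-splice junction marks a circle, whereas reads from inside it cannot be told apart from those of the linear RNA. The exon structure given for a circRNA was therefore that of the transcript model assigned to its junction, not one read from the circle itself.

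The 24 libraries held 99083 junction reads, from 822 to 11561 per library, and a floor of 3 reads corresponded to 0.0259% to 0.365% of a library. No pair of libraries was identical, and the chi-square per degree of freedom between libraries of 1 group was at least 2.113 over 91 pairs. Since the values pair circRNAs with transcripts and not with gene names, muscle marker genes could not be checked, and circRNAs are named here by their position on the rheMac2 genome, counted from 1. In muscle tissue, fewer cells of a type and fewer circles per cell cannot be told apart.

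The two-exon circRNAs were numerous but mostly rare. Together they held 27981 junction reads, 28.24% of all, against 31673 reads on 2873 circRNAs with 3 or 4 exons, 12702 reads on 1468 circRNAs with 5 to 7 exons, 6717 reads on 473 circRNAs with a single exon, 4814 reads on 369 intronic circRNAs and 3160 reads on 579 circRNAs with 8 or more exons. At the threshold of the rule, 734 two-exon circRNAs (30.87%) had exactly 2 reads, while a further 2429 two-exon structures had a single read and were left out. A further 362 had 3 reads, 724 had 4 to 9, 466 had 10 to 49, 58 had 50 to 99, and 34 had at least 100. The 10 circRNAs with the highest mean share of a library's junction reads held 17.74% of the two-exon reads, the 100 with the most reads held 44.96%, and 136 sufficed for 50% of them.

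Detection across monkeys was equally uneven. Of the 2378 two-exon circRNAs, 230 (9.672%) were found in 1 library, 754 in 2, 799 in 3 to 5, 420 in 6 to 11 and 175 (7.359%) in 12 to 23, and none was found in all 24. The share found in at least 12 libraries was 9.514% for single-exon circRNAs and 5.674% for circRNAs with 3 or 4 exons. These shares follow from the reads of the same libraries and are given as a description. Summed over the 24 libraries, the median was 4 reads for two-exon and for single-exon circRNAs and 3 for those with 3 or 4 exons. Their means were 11.77, 14.2 and 11.02 reads. Libraries share the same circRNAs, so the tests that follow concern libraries and not single circRNAs. The number of junction reads per distinct circRNA present in a library had a mean of 2.36 for two-exon and 2.766 for single-exon circles. The paired difference was -0.407 ± 0.407 (SD, n = 24), two-exon circles were higher in 5 of 24 libraries, and the permutation test over libraries (two-sided, 100000 sign changes) gave p = 0.00012 (adjusted p = 0.00024 over 2 comparisons). Against circRNAs with 3 or 4 exons (2.477 reads) the paired difference was -0.117 ± 0.21 (SD), again with higher values in 5 of 24 libraries (permutation test, p = 0.0105, adjusted p = 0.0105), but it did not hold once circRNAs with 1 read in all were counted (difference -0.0312, permutation p = 0.383).

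As for their structure, two-exon circles were short and built from exons of ordinary size. The spliced circle had a median length of 259 nt (quartiles 215 and 315), compared with 290 nt for single-exon circles (quartiles 208 and 677) and 404 nt for circles of 3 or 4 exons (quartiles 326 and 506). Between 200 and 400 nt lay 1721 two-exon circles (72.37%), 5 were under 100 nt and 40 were over 1000 nt. The upstream exon, whose acceptor closes the circle, had a median of 125 nt (quartiles 96 and 165), and the downstream exon, whose donor closes it, a median of 127 nt (quartiles 98 and 165). Neither exon was regularly the longer: the upstream exon was longer in 1176 circles, the downstream exon in 1184, and both were equal in 18.

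A circle whose length is a multiple of 3 keeps the reading frame of any uninterrupted coding sequence over a full turn. This was the case for 872 two-exon circles (36.67%), close to the 36.79% of single-exon circles and the 36.96% of circles of 3 or 4 exons. In 426 of the 872 both exons were multiples of 3, and in the other 446 only their sum was. Taken alone, the upstream exon was a multiple of 3 in 897 circRNAs (37.72%) and the downstream exon in 1020 (42.89%). No coding frame was read, so these are counts of lengths only.

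The intron enclosed by the circle was the shortest of its surroundings in most cases. The internal intron had a median of 1788 nt (quartiles 662 and 4259.8), whereas the intron upstream of the circle had a median of 5485 nt (quartiles 2341.5 and 14788) and the intron downstream a median of 4826 nt (quartiles 2169 and 11867.5). For 374 two-exon circRNAs (15.73%) several pairs of flanking introns were given, and the pair given most often was used. Among the 2364 two-exon circRNAs with both flanking introns given, the internal intron was the shortest of the 3 in 1628 (68.87%). It was the middle one in 498 (21.07%) and the longest in 238 (10.07%). The upstream flanking intron was a median of 3.423 times and the downstream one a median of 2.929 times as long as the internal intron. A short internal intron was common, with 112 (4.71%) under 100 nt, 483 (20.31%) under 500 nt and 799 (33.6%) under 1000 nt, while 246 (10.34%) exceeded 10000 nt. The median genomic span from acceptor to donor was 2052.5 nt.

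**Figure D1:**
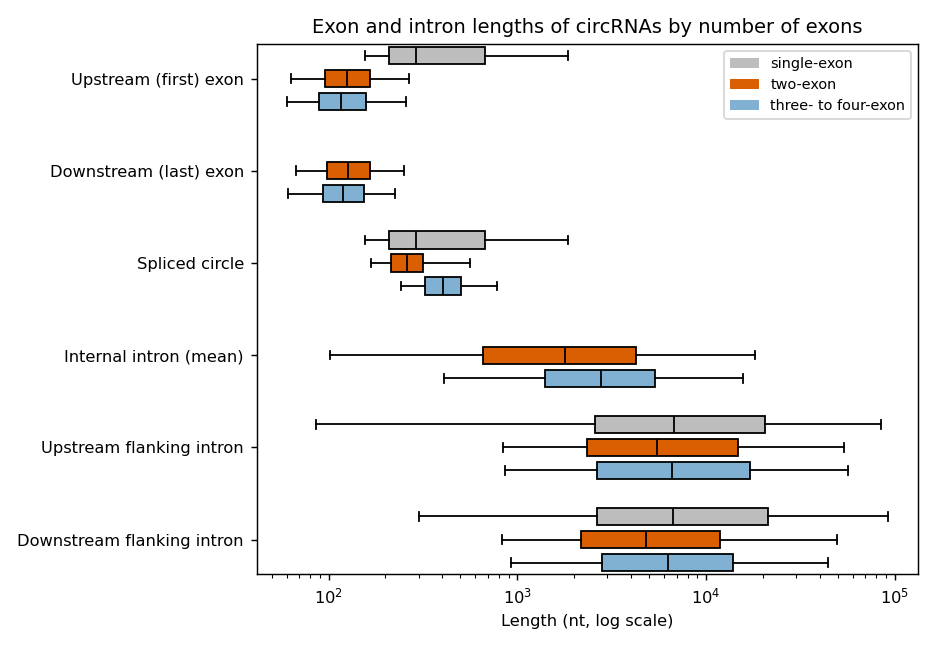
Lengths in nt on a log scale for single-exon (grey), two-exon (orange) and three- to four-exon (blue) circRNAs. Boxes span the quartiles with the median as a line, and whiskers run from the 5th to the 95th percentile. For two-exon circles the internal intron (median 1788 nt) lies to the left of both flanking introns (medians 5485 and 4826 nt), and single-exon circles are drawn without a downstream exon or internal intron because they have none.

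Set beside the neighbouring classes, two-exon circRNAs had the shorter introns. Their flanking introns had medians of 5485 and 4826 nt, against 6749.5 and 6681 nt around single-exon circles and 6618 and 6306 nt around circles of 3 or 4 exons, and the mean internal intron of the latter had a median of 2774 nt. The quartiles overlapped widely in each case, as the plot of exon and intron lengths shows. circRNAs that share a host transcript are not independent of each other, and no test was made of these differences. The share of two-exon circles among the circRNAs of a chromosome ran from 19.87% on chromosome X (31 of 156) and 20.16% on chromosome 18 (52 of 258) to 36.8% on chromosome 20 (99 of 269) and 37.31% on chromosome 19 (75 of 201), and chromosome 1 carried the most, 260.

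The shortest circle, chr5:175757465-175757650 on the minus strand, had 53 nt in exons of 50 and 3 nt and was seen with 2 reads in 1 library. The longest, chr9:121698095-121704011 on the plus strand, had 5403 nt, of which 5289 nt lay in its upstream exon, and 10 reads in 4 libraries. An internal intron of 5 nt was assigned to chr20:2532089-2532228, which spanned 140 nt and had 2 reads in 2 libraries. Only 2 internal introns were under 30 nt and 3 under 50 nt, lengths at which a gap between exon blocks and a spliced intron cannot be told apart in the values. At the other end, chr1:213251644-213398478 joined exons of 158 and 126 nt across an intron of 146551 nt, and it was seen with 16 reads in 11 libraries and with 7 and 4 reads in the young and old in-depth libraries.

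Splice sites of two-exon circles were often used by other circles as well. The acceptor site was also the acceptor of at least 1 other junction in 544 two-exon circRNAs (22.88%), the donor site in 499 (20.98%), either site in 925 (38.9%), both in 118 (4.962%), and neither in 1453 (61.1%). A single acceptor was shared with up to 7 other junctions and a single donor with up to 5. Either exon was also found as a circle of its own in 108 (4.542%), both exons in 2. The 2378 circles drew on 4621 distinct exons, of which 129 (2.792%) took part in more than 1 two-exon circle, and in 99 pairs, made of 181 circRNAs (7.611%), the downstream exon of one circle was the upstream exon of the next.

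Sharing was more frequent among the circRNAs seen in many monkeys. A splice site was shared in 31.3% of the 984 two-exon circRNAs found in 1 or 2 libraries, in 42.74% of the 1219 found in 3 to 11 and in 54.86% of the 175 found in at least 12. Over the same classes the median upstream flanking intron was 5034, 5864 and 6244 nt and the median downstream flanking intron 4416.5, 5015 and 5807 nt. The spliced length hardly moved, with medians of 256, 261 and 259 nt, and the internal intron had medians of 1814, 1789 and 1592 nt. The classes differ in reads by construction, and the part of read number in these shares was not tested.

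Most Ensembl transcripts were assigned few two-exon circles each. An Ensembl transcript was assigned in at least 1 library to 1323 circRNAs (55.63%), and the other 1055 (44.37%) rested on transcripts assembled by the authors in every library. Those with an Ensembl transcript were found in a median of 3 libraries, the others in a median of 2. Found in at least 12 libraries were 9.751% and 4.36%. A circRNA listed in more libraries had more chances of an Ensembl transcript in 1 of them. The definition therefore favours higher library counts in that class, and these values are a description only. The median spliced lengths were 256 and 264 nt. Of 1308 distinct Ensembl transcripts, 1115 hosted 1 two-exon circle and 193 more than 1. Circles assigned only to assembled transcripts were not counted here, and Ensembl names covered 34.45% of the two-exon reads. These are therefore counts per transcript name and not per gene.

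For 4 Ensembl transcripts with at least 5 two-exon circles, the leading circle held 80.9%, 50.9%, 59.3% and 52.0% of the reads, in the order below. These are all reads of a circle, including those from libraries in which it was assigned to another transcript. The two-exon reads assigned to the 4 transcripts themselves were 52, 109, 20 and 6. ENSMMUT00000001272 on the plus strand of chromosome 10 hosted 6 two-exon circles within 45240 nt, and chr10:85077902-85078416 (325 nt, internal intron of 190 nt) held 76 of their 94 reads and appeared in 19 libraries. The other 5 circles of that transcript had 2, 3, 6, 4 and 3 reads. ENSMMUT00000003777 on the minus strand of chromosome 3 hosted 5 within 50631 nt, of which chr3:81696427-81698887 had 59 reads and chr3:81669254-81670101 had 49, both in 18 libraries, and the others 2, 4 and 2 reads. ENSMMUT00000006192 on the minus strand of chromosome 18 hosted 5 within 197482 nt, with 35 reads in 12 libraries on chr18:17249844-17264809, 15 reads in 9 libraries on chr18:17318292-17326392, and 3 reads on each of the remaining circles. ENSMMUT00000041086 on the plus strand of chromosome 6 also hosted 5, within 43449 nt, with 13 reads in 7 libraries on chr6:131096142-131100429 and 4, 3, 3 and 2 reads on the others.

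The 10 most abundant two-exon circRNAs were ranked by their mean share of a library's junction reads, given as reads per 10000. First was chr6:73699671-73701378 on the minus strand, a circle of 181 nt in the transcript ENSMMUT00000030069 with exons of 49 and 132 nt around an intron of 1527 nt, flanked by introns of 12927 nt upstream and 3930 nt downstream. It was read 1076 times in 23 libraries, with a mean of 102.4 ± 44.43 per 10000 (SD, n = 24). Its lowest, median and highest levels were 60.1, 95.6 and 128 in young, 0, 106 and 207 in middle-aged and 43.4, 105 and 134 in old monkeys. The ranges of the 3 groups overlapped throughout. In the only library without it, 3 reads would have been 33.1 per 10000, below its mean and below its lowest level elsewhere, 43.4. Among the two-exon circles tested for age it was the steadiest, with a coefficient of variation over libraries of 43.4%.

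The second, chr9:64242316-64243110 on the minus strand, was a circle of 172 nt with exons of 123 and 49 nt, read 958 times in 18 libraries (mean 86.01 ± 63.13). Its lowest, median and highest levels per 10000 were 0, 82.0 and 129 in young, 0, 72.1 and 177 in middle-aged and 49.5, 129 and 235 in old monkeys. It was present in every old library, and in 4 of 6 young and 7 of 11 middle-aged libraries. Of the 6 libraries without it, 1 listed the same junction with another two-exon structure (exons of 141 and 123 nt, 15 reads). The old libraries reached higher, but all groups overlapped.

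The third, chr2:185463752-185472097 on the plus strand, was all or none. This circle of 405 nt, with exons of 139 and 266 nt around an intron of 7941 nt, had 544 reads in 10 libraries, where it made up 92.1 to 319 junction reads per 10000, and none in the other 14, where 3 reads would have been between 2.59 and 36.5 per 10000. It was present in 3 of 6 young, 2 of 11 middle-aged and 5 of 7 old libraries. Both in-depth libraries, with 60704 and 35205 junction reads, also lacked it. Among the 24 libraries, the one of the same age as the old in-depth library, 40.1 years, had 60 of its 3550 junction reads on this circle. The one of 0.005 years, the age of the young in-depth library, had 0. In each of the 10 libraries the junction was assigned to an assembled transcript, never to an Ensembl one, and no library listed the junction with another structure. The downstream exon was listed as a circle of its own with 12 reads in 4 libraries and with 19 reads in the old in-depth library. Whether a library lacked the circle or lacked a transcript model for its upstream exon cannot be told apart from these values.

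The next 3 were also missing from some libraries while abundant in others. chr20:29319558-29319983 on the plus strand (327 nt, internal intron of 99 nt) had 638 reads in 21 libraries and a mean of 64.7 ± 35.29 per 10000, with means of 65.8 ± 31.4 in young, 62.2 ± 37.7 in middle-aged and 67.7 ± 39.5 in old monkeys (SD, n = 6, 11 and 7). chr8:42216486-42217006 on the minus strand (201 nt, internal intron of 320 nt) had 427 reads in 18 libraries, and its group means were 47.2 ± 23.2, 48.4 ± 53.0 and 45.6 ± 31.3 per 10000. In 2 of the 6 libraries without it, the junction was listed with a longer upstream exon (12 reads in all). chr1:142073778-142074235 on the minus strand (273 nt, internal intron of 185 nt) had 298 reads in 22 libraries, with group means of 23.1 ± 19.8, 49.2 ± 38.6 and 31 ± 22.2 per 10000. The group means of chr20:29319558-29319983 and chr8:42216486-42217006 lay within 1 SD of each other. The young and middle-aged means of chr1:142073778-142074235 stood further apart, but the ranges of 0 to 55.1 and 12.1 to 146 overlapped. In the libraries without these circles, 3 reads would have been 8.45 to 33.1, 2.59 to 36.5 and 10.2 to 22.8 per 10000, in the order above. These floors were below the means of 64.7, 47.3 and 37.33. They reached above the lowest levels elsewhere, 30.7, 21.8 and 8.84.

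The remaining 4 were each found in 23 libraries at a mean of 23.18 to 30.53 per 10000. chr2:103014134-103021852 was the longest circle of the 10, with 1044 nt, of which 981 nt lay in the downstream exon, and 286 reads. chr5:135960595-135961059 (269 nt), in ENSMMUT00000001198 in 13 libraries, had 281 reads. chr12:43582360-43582775 (323 nt, internal intron of 93 nt), in ENSMMUT00000029039 in 14 libraries, had 250 reads. chr6:69020277-69025172 (241 nt), in ENSMMUT00000029424 in 2 libraries and in assembled transcripts in 21, had 207 reads. The library without one of them was in each case middle-aged or young, and 3 reads there corresponded to 10.2 per 10000 for chr12:43582360-43582775, below its mean of 27.78, and to 26.1 to 36.5 for the others, above their means of 23.18 to 30.53, so that absence was not detectable for those 3.

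**Figure D2:**
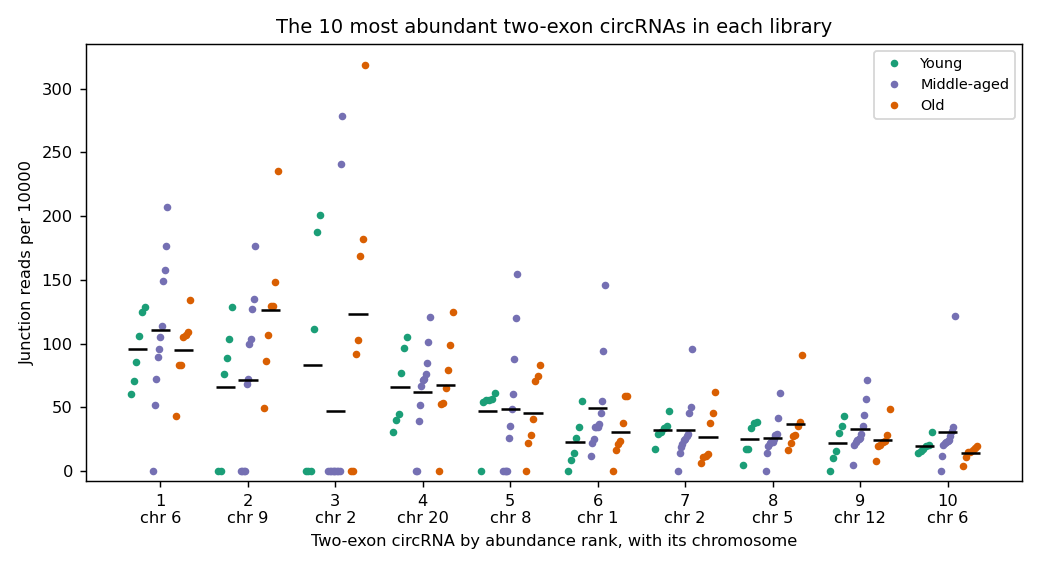
Junction reads per 10000 in each library for the 10 most abundant two-exon circRNAs, in order of abundance and labelled by chromosome. Points are young (green), middle-aged (purple) and old (orange) monkeys, and black lines are group means. The points of the 3 groups overlap for all 10, and the third circle (chromosome 2) is at 0 in 14 libraries and at 92.1 to 319 in the other 10.

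A junction could carry several exon structures. Other structures were listed on the junction of 153 two-exon circRNAs (6.434%), which had 3810 reads as two-exon circles. The 3656 reads counted on other structures include other two-exon forms of the same junction. The 2 totals therefore overlap and give no balance between two-exon and other circles. Against all other forms of its junction, those with 2 exons included, the two-exon form had more reads in 96, fewer in 47 and as many in 10. The other structure had 2 exons as well for 71, 3 exons for 67, 4 exons for 11 and 1 exon for 16, and in all 16 the model's single exon covered the whole span, intron included.

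In 54 two-exon circRNAs the other structure kept both outer exons and added 1 exon between them. These made 58 pairs, in which the added exon had a median of 74.5 nt (18 to 281) and was a multiple of 3 in 24 pairs (41.4%). Summed over the pairs, the two-exon forms had 1297 reads and the three-exon forms 688. A two-exon form that stood in more than 1 pair was counted once for each pair. The 3 junctions at which the two-exon form and the leading other form were nearest in reads were chr9:138316-167118, chr4:71769329-71771789 and chr11:124869511-124873111. The first had 27 two-exon reads in 9 libraries and 26 reads with an added exon of 95 nt, and 46 reads on 3 other forms in all (two-exon share 36.99%). The second had 29 two-exon reads in 7 libraries and 26 reads on a form with 2 added exons of 45 and 108 nt, and 62 reads on 4 other forms in all (two-exon share 31.87%). The third had 54 two-exon reads in 7 libraries and 40 reads with an added exon of 21 nt in 13 libraries.

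The choice of structure went by library at chr12:90754593-90757353, singled out after its values were seen because it had the fewest libraries among the circRNAs with at least 100 reads. Its two-exon form (exons of 523 and 133 nt) had 151 reads in 5 libraries, between 30.2 and 77.8 per 10000, and a form with an added exon of 73 nt had 47 reads in 3 libraries, between 37.2 and 72.9 per 10000. The in-depth libraries listed 252 and 156 reads, all of them on the three-exon form. A given library listed 1 structure per junction, and a change of structure and a change of transcript model between libraries cannot be told apart.

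The first question of age was whether two-exon circles took a different part of all junction reads. The share of junction reads on two-exon circRNAs was lowest, median and highest at 23.9%, 26% and 30.7% in young monkeys, 23.9%, 27.3% and 33.6% in middle-aged monkeys and 23.9%, 28.3% and 35.5% in old monkeys. The lowest values were alike in the 3 groups, and the upper values were higher with age, with full overlap of the ranges. The means were 26.57% ± 2.472 (SD, n = 6), 27.31% ± 3.077 (n = 11) and 30.08% ± 4.27 (n = 7). By the exact permutation test (two-sided), old exceeded young by 3.51 percentage points (p = 0.0967, adjusted p = 0.197 over 3 comparisons), old exceeded middle-aged by 2.77 points (p = 0.131, adjusted p = 0.197), and middle-aged exceeded young by 0.733 points (p = 0.634, adjusted p = 0.634). None passed 0.05.

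**Figure D3:**
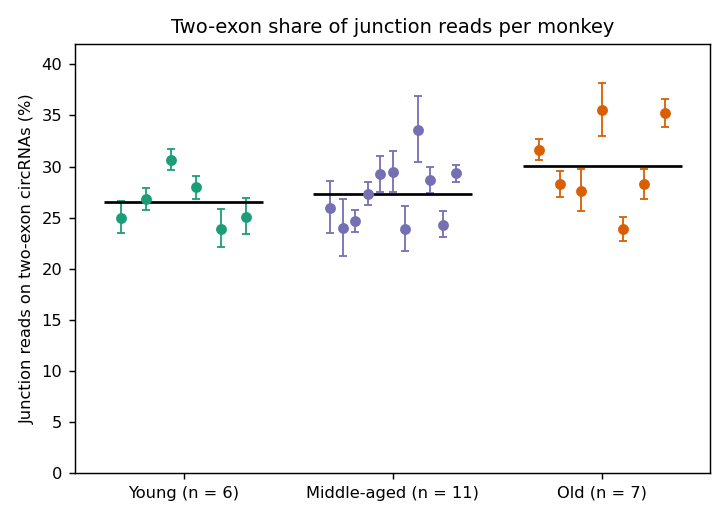
Share of junction reads on two-exon circRNAs in each monkey, in %, in order of age within each group. Points are libraries with 95% Wilson intervals, which cover counting error only, and black lines are group means (26.57%, 27.31% and 30.08%). The old group holds the 35.5% library and also one at 23.9%, the same value as the lowest of the other groups.

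The make-up of the two-exon pool did not differ detectably with age either. The mean spliced length of two-exon circles weighted by their reads was 306.5 ± 27.83 nt in young, 300.9 ± 25.23 nt in middle-aged and 309.3 ± 32.92 nt in old monkeys, and the smallest exact permutation p of the 3 comparisons was 0.544 (adjusted p = 0.876). Drawn down to 822 junction reads, the depth of the smallest library, a library was expected to show 151.9 ± 17.13, 150.2 ± 11.61 and 163.2 ± 22.75 distinct two-exon circRNAs. The old mean was 11.3 above young (exact permutation p = 0.329, adjusted p = 0.493), or 21.1 above without the monkeys under 1 year (exact permutation p = 0.1, adjusted p = 0.209), and 13.0 above middle-aged (p = 0.14, adjusted p = 0.419). The differences of 11.3 and 13.0 were smaller than the spread between the old libraries.

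Single circRNAs were then compared between age groups with the edgeR quasi-likelihood test, Benjamini-Hochberg adjustment and the total junction reads as library size. With at least 2 reads required in at least 12 libraries, 218 circRNAs could be tested, 80 of them two-exon circRNAs, which held 10748 reads (38.4% of the two-exon reads). The other 2298 two-exon circRNAs did not have 2 reads in enough libraries. They included circles with many reads in few libraries. Examples were chr2:185463752-185472097, with 544 reads in 10 libraries, and chr12:90754593-90757353, with 151 reads in 5 libraries. Neither of these circles was tested for age. The 80 varied strongly between monkeys, with a median coefficient of variation over the 24 libraries of 86.6% (43.4% to 161%), close to the 88.9% of the 138 other circRNAs tested.

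Between old and young monkeys, none of the 80 two-exon circRNAs passed an adjusted p of 0.05, nor did any of the 218 circRNAs (0.0% called). At an unadjusted p under 0.05 there were 2 of 80 two-exon circRNAs, against 12 of 218 (5.5%). Of the 80, 52 had a positive and 28 a negative log2 fold change, while among all 218 the positive share was 50.0%. The median log2 fold change was 0.24 (quartiles -0.27 and 0.55) against a median of 0.00 over all circRNAs, with a median standard error of 0.68. DESeq2, TMM scaling and limma likewise called 0 of the 80, with 2, 2 and 3 at an unadjusted p under 0.05.

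The 2 two-exon circRNAs nearest to a call were higher in old monkeys. chr3:31122982-31126472, a circle of 223 nt on the minus strand, had a lowest, median and highest level of 0, 4.76 and 13.6 per 10000 in young, 0, 11.7 and 22.1 in middle-aged and 0, 14.7 and 22.3 in old monkeys. The groups overlapped, and the log2 fold change of old against young was 1.39 ± 0.64 (SE, edgeR p = 0.0342, adjusted p = 0.706). chr18:14771495-14774785 (302 nt, plus strand, acceptor shared with 5 other junctions) had 0, 3.21 and 8.58 in young, 0, 6.31 and 15.1 in middle-aged and 0, 13.5 and 32.5 in old monkeys. Its log2 fold change of old against young was 1.80 ± 0.83 (edgeR p = 0.0348, adjusted p = 0.706), and 0.91 without the 3 young monkeys under 1 year (p = 0.355, edgeR adjusted p = 0.97).

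On the lower side, chr12:16322000-16323148 (260 nt) was found in 6 of 6 young and 4 of 7 old libraries, at 8.03, 13.4 and 30.1 per 10000 in young and 0, 5.63 and 14.2 in old monkeys (log2 fold change -1.11 ± 0.67, edgeR adjusted p = 0.898). chr14:55587403-55609770 (449 nt, internal intron of 21919 nt) was found in 6 of 6 young and 3 of 7 old libraries, at 3.41, 9.65 and 20.0 in young and 0, 0 and 14.1 in old monkeys (-1.34 ± 0.83, edgeR adjusted p = 0.898). Both had other structures on the same junction, with 13 reads in 1 library for the first and 20 reads in 2 libraries for the second. With reads summed over structures, the log2 fold change of chr12:16322000-16323148 was -0.55 (edgeR p = 0.353, adjusted p = 0.944).

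**Figure D4:**
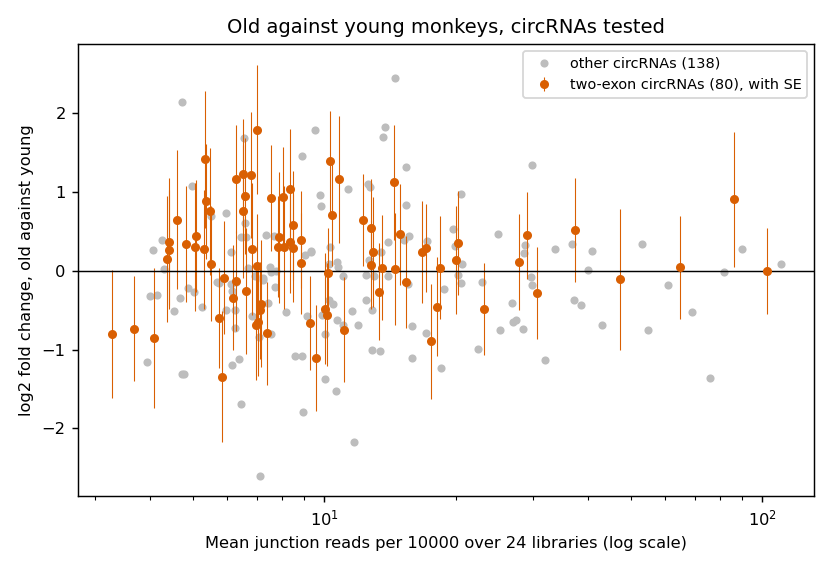
Log2 fold change of old against young monkeys (edgeR) against the mean level in junction reads per 10000 over the 24 libraries, on a log scale. Orange points are the 80 two-exon circRNAs with their standard errors, and grey points are the 138 other circRNAs tested. The two-exon points spread from -1.34 to 1.80 with a median standard error of 0.68, and none passed the adjusted p.

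Between middle-aged and young monkeys, again 0 of the 80 two-exon circRNAs and 0 of the 218 (0.0%) passed the adjusted p in edgeR. At an unadjusted p under 0.05 there were 4 of 80, against 15 of 218 (6.88%), and DESeq2, TMM scaling and limma called 0 of the 80 with 4, 4 and 5 at that level. The log2 fold change was positive for 43 of 80 (all circRNAs 52.8%), with medians of 0.03 and 0.04. Under TMM scaling 34 of 80 were positive and both medians were below 0 (-0.11 and -0.12), so that no direction can be given. With circRNAs opened to those with at least 10 reads in total, 0.375% of the 1601 circRNAs then tested were called and 0.312% called lower, among them 2 two-exon circRNAs. These were chr5:144634859-144636073, with 16 reads in 2 young libraries, 0 in middle-aged and 7 in 1 old library, and chr7:164261344-164262737, with 13 reads in 2 young libraries and 0 in the other groups. Both reached 10 reads only through the young libraries, in which they were high, so their calls support no difference.

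The smallest p among the higher ones belonged to chr17:15578221-15578554 (250 nt, internal intron of 84 nt), which was found in 11 of 11 middle-aged but 3 of 6 young libraries. Its lowest, median and highest levels were 0, 2.42 and 10.2 per 10000 in young, 5.03, 11 and 26.1 in middle-aged and 0, 4.91 and 13.9 in old monkeys. The log2 fold change was 1.56 ± 0.62 (edgeR p = 0.0162, adjusted p = 0.51). All 12 young reads came from the 3 monkeys under 1 year, and without these monkeys the fitted value was 5.36 (edgeR adjusted p = 0.0638), which depends on the prior count because the other 3 young libraries had 0 reads. chr2:135238373-135256234 followed, with medians of 0.806 in young and 5.02 in middle-aged monkeys (1.80 ± 0.82, edgeR adjusted p = 0.673), and its log2 fold change was 0.86 without the monkeys under 1 year (edgeR adjusted p = 0.973). Among the lower ones, chr7:84228598-84229306 had medians of 10.1 and 3.35 (-1.33 ± 0.60, edgeR adjusted p = 0.673) and chr9:32072281-32074629 medians of 12.5 and 0 (-1.38 ± 0.68, edgeR adjusted p = 0.688). In each of the 4 the ranges of young and middle-aged monkeys overlapped.

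Between old and middle-aged monkeys, 0 of the 80 two-exon circRNAs passed the adjusted p in edgeR, and 1 of the 218 circRNAs did (0.459%), which was no two-exon circRNA. At an unadjusted p under 0.05 there were 2 of 80, against 11 of 218 (5.05%), while DESeq2, TMM scaling and limma called 0 of the 80 with 5, 4 and 3 at that level. The log2 fold change was positive for 42 of 80 (all circRNAs 43.6%) with medians of 0.09 and -0.10, and TMM scaling moved these to 53 of 80 and to 0.27 and 0.12. The 2 higher ones with the smallest p were chr6:91726675-91727726 (249 nt), with medians of 0 in middle-aged and 8.08 in old monkeys (1.47 ± 0.69, edgeR adjusted p = 0.736; 2.23 without the 4 marked middle-aged libraries, edgeR adjusted p = 0.723), and again chr18:14771495-14774785, with medians of 6.31 and 13.5 (1.32 ± 0.70, edgeR adjusted p = 0.736; 0.77 without the 6 smallest libraries, edgeR adjusted p = 0.965). The 2 lower ones were chr14:24630195-24631266 (215 nt), found in 8 of 11 middle-aged and 1 of 7 old libraries (-1.62 ± 0.77, edgeR adjusted p = 0.736), and the abundant chr6:69020277-69025172, with medians of 23.3 and 15.2 (-1.0 ± 0.53, edgeR adjusted p = 0.736). The old libraries share their values with the comparison against young monkeys, so the 2 entries of chr18:14771495-14774785 are not independent.

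In counts simulated for old against young over the 218 circRNAs, with 40 changed circRNAs at each fold size, a log2 fold change of 1 was recovered for 1 of 40, a change of 2 for 13 of 40 and a change of 3 for 36 of 40, with 0, 2 and 3 false calls. The simulation used the library sizes and animal numbers of this comparison and 1 dispersion, 0.464, for every circRNA. Spread particular to single circRNAs was not simulated. Under these settings, changes of the size fitted for most two-exon circRNAs were rarely recovered. The parts of depth, spread and animal number were not tested separately.

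When the two-exon circRNAs were looked for in the in-depth libraries, most of the well-covered ones were found again. The ages of the 2 animals, 0.005 and 40.1 years, also occur among the 24 monkeys, and whether they are the same animals is not stated, so the recovery may not be from new monkeys. The young in-depth library (60704 junction reads) listed 1442 of the 2378 (60.64%), which made up 24.66% of its junction reads (95% Wilson interval 24.32% to 25%). The old in-depth library (35205 junction reads) listed 1244 (52.31%), which made up 24.19% (23.74% to 24.64%). Both shares were inside the range of the 24 libraries, and with 1 library each they were not compared. Counting also two-exon circRNAs below the read minimum or new to these libraries, the two-exon share was 29.59% and 29.71%.

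Recovery rose with the reads a circRNA had in the 24 libraries. Of the 734 with 2 reads, 48.5% were listed in either in-depth library, of the 362 with 3 reads 66.3%, of the 724 with 4 to 9 reads 83.8%, of the 466 with 10 to 49 reads 94.4% and of the 92 with 50 or more 95.7%. Over all, 1731 (72.8%) were found in either and 955 (40.2%) in both. If any structure on the same junction was counted, 1792 (75.4%) were found. The 2 reads of the rule's minimum therefore left a group of circRNAs of which 51.0% were seen again by junction.

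**Figure D5:**
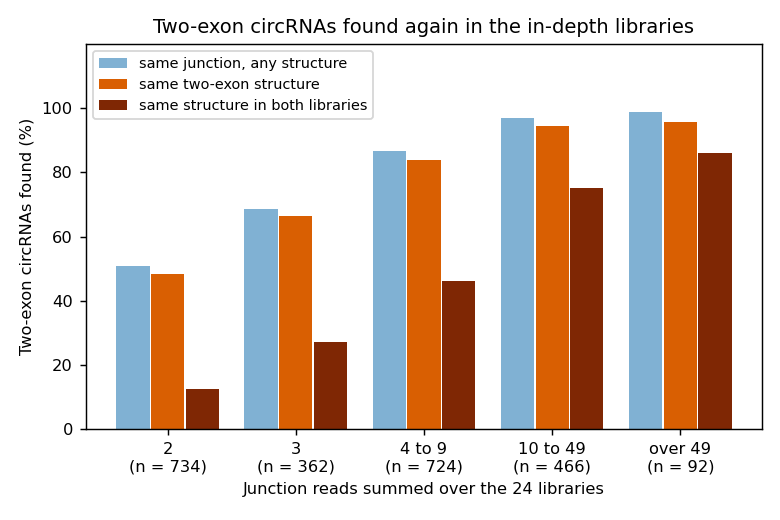
Share of the 2378 two-exon circRNAs found in the 2 in-depth libraries, in %, by the number of junction reads summed over the 24 libraries, with the number of circRNAs under each class. Blue bars count the same junction with any exon structure in either library, orange bars the same two-exon structure in either library, and brown bars the same structure in both. The orange bars rise from 48.5% at 2 reads to 95.7% at 50 or more.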

How the data were processed

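Reads were aligned by the authors to rheMac2 with TopHat2 2.0.14 and Bowtie2 2.2.4 after trimming with cutadapt, transcripts were assembled with Cufflinks 2.2.1 and merged with Ensembl models, and circRNAs were called with CIRCexplorer, whose version is not given in the sources used here. The values deposited by the authors for each library were unnormalized counts, for each circRNA, of the reads across its junction, with its position, exon sizes and transcript. A circRNA not listed for a library was given a count of 0, although it may have had reads without being called. Exon structures came from transcript models that differed between libraries, and assembled transcript names were not comparable between them.

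Counts were summed by chromosome, start, end, strand and exon structure over the 24 libraries, and at least 2 reads were required. The members, lists and tests were chosen with earlier results of these data known. Shares were taken of all junction reads of a library (822 to 11561), with Wilson intervals at a confidence of 95%, which cover counting error only because reads lacked molecular identifiers. The authors' scaling factors were not used. Library values were compared by exact permutation tests, and reads per circRNA by sign changes within libraries, with scipy 1.17.1 and Benjamini-Hochberg adjustment. Age groups were compared with edgeR 4.0.16 in R 4.3.3 (3 groups in 1 fit, no covariates, common dispersion 0.464), with DESeq2 1.42.0, TMM scaling, limma 3.58.1 on log2 values with a pseudocount of 1, other read minimums, reads summed over structures, and subsets of libraries as alternatives. The edgeR step was tested on simulated counts. Each library was of 1 monkey, and the labels give no batch. An F in the names of 4 middle-aged libraries has no stated meaning, and the comparisons were repeated without them, an alternative added after seeing the data.

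The circRNAs named were the 10 with the highest mean share, in each age comparison the called ones or else the 2 with the smallest p in each direction, the extremes of spliced length, internal intron and span, the circles of the 3 Ensembl transcripts with the most and of 1 tied with them, and the 3 junctions shared most evenly between structures with at least 20 reads each. The in-depth libraries entered no fit. Gene names and sequences are not given, since no rheMac2 genome was used here.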

Additional observations from a re-analysis of the deposited data

Results flagged for a closer look

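In the young and old groups, 7 values stood far from the rest of their age group by Dixon's test at 95%, among 48 groups of values examined. The middle-aged libraries were not examined. Chance gives such a value in about 1 in 20 groups only where values are normally distributed. Some of the groups here hold low counts with zeros, so no excess over chance can be read from 7 of 48. The cause was not tested for any of them. 1 young library had a read-weighted mean two-exon length of 358 nt, with the next at 309 nt and the lowest at 281 nt. 1 young library listed no read of chr8:42216486-42217006 (0 per 10000), while the other 5 lay between 54.6 and 61.0. For chr12:16322000-16323148, the young library at 30.1 per 10000 stood above the next at 14.5. Among old libraries, the highest level of chr5:135960595-135961059 was 91.1 per 10000 with the next at 38.4, that of chr14:55587403-55609770 was 14.1 with the next at 4.91, and that of chr7:84228598-84229306 was 27.1 with the next at 11.1. chr14:24630195-24631266 was read in 1 old library, at 7.37 per 10000, and was at 0 in the other 6.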

How the results depend on the processing

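The number of two-exon circRNAs rose from 2378 to 4807 when 1 read sufficed. With the test opened to circRNAs with at least 10 reads in total (1601, of which 558 two-exon), 2 two-exon circRNAs were called in middle-aged against young monkeys and none in the other comparisons. Both passed the read minimum only through the young libraries in which they were high, so this count is no evidence of a difference. The difference in reads per circRNA from circRNAs with 3 or 4 exons was -0.0312 (permutation p = 0.383) with single-read circRNAs included. Small differences changed sign. In spliced length, middle-aged against young became 0.0291 nt as an unweighted mean. Old against young became -5.9 nt without monkeys under 1 year and -5.0 nt without the 6 smallest libraries. In distinct two-exon circRNAs at equal depth, middle-aged against young became 8.08 without monkeys under 1 year and 4.43 without the 6 smallest libraries. Distinct two-exon circRNAs per 1000 junction reads are another measure, which is not at equal depth. That measure was 178.8 in the library of 822 junction reads and 80.9 in the library of 11561. By it, middle-aged against young was 15.3 and old against middle-aged -4.16. None of them passed the test before or after, and the cause was not tested. The other 69 of 79 alternatives for these summaries kept their direction and side of the threshold, those without the 4 marked libraries included, an alternative chosen after seeing the data (0 two-exon circRNAs called; share difference 2.41 percentage points for old against middle-aged and 1.09 for middle-aged against young). The circRNAs named by smallest p kept direction and side too, but their log2 fold changes moved, from 1.37 to 5.36 for chr17:15578221-15578554, 0.91 to 1.86 for chr18:14771495-14774785 (old against young), 0.86 to 1.93 for chr2:135238373-135256234, -1.86 to -0.55 for chr12:16322000-16323148, -2.08 to -1.13 for chr14:55587403-55609770 and -1.28 to -0.59 for chr6:69020277-69025172. Among differences that did not pass, spliced length in old against middle-aged ranged from 1.91 to 19.2 nt, and the share in middle-aged against young from 0.687 to 2.01 percentage points. The share difference of old against young ranged from 2.9 to 4.43 percentage points (adjusted p 0.146 to 0.449). No paired analysis was possible because the labels give no replicate numbers and each monkey is in 1 group. A floor of 3 reads was 0.0259% to 0.365% of a library.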

Other observations

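Values outside the comparisons concern single junctions. The junction chr7:20095754-20096884 was listed as a two-exon circle (exons of 407 and 568 nt) with 4 reads in 1 library and as a single exon of 1131 nt, which spans the intron in the transcript model, with 318 reads in 20 libraries. The junction chr9:50420096-50435842 was listed as a two-exon circle (115 and 47 nt) with 23 reads in 1 library, while its other forms with 3 to 5 exons had 384 reads in 11 libraries. The junction chr14:84353727-84362875 had 2 two-exon reads in 1 library and 68 reads with an added exon of 76 nt in 21 libraries. All 3 were chosen after their values were seen, as junctions on which the two-exon form was the rare one.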
